A study of Mus musculus with 12 samples.

Results

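The genes described here carry the R-spondin and Wnt4 signal of the early ovary. They are Rspo1, Wnt4, Lgr4, Lgr5, Fzd1, Ctnnb1, Axin2 and Znrf3, chosen by name with earlier results of these data known. Every probe set that the platform annotation gives to 1 of them alone was taken. A probe set is a group of short probes on the array for the same transcript. This gave 16 of the 45037 probe sets tested, with 1 for Rspo1, 3 for Ctnnb1 and 2 for each of the other genes. Where a gene had several, they are numbered by brightness and the brightest stands for the gene, which makes 8 of 18193 genes.

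The arrays hold gonads of mouse embryos at E11.5, when the bipotential gonad begins to follow the ovarian or the testicular path. The 4 groups were wild-type XX (WT XX), wild-type XY (WT XY), Cbx2 knockout XX (KO XX) and Cbx2 knockout XY (KO XY), with 3 arrays each. Knockout embryos came from crosses of heterozygotes; the labels name no strain and do not describe the allele. Gonadal cells were cut by laser from 30 µm frozen sections, located by GATA4 staining and tissue form. Each array carries the RNA of 2 or 3 pooled embryos, so p-values measure the spread between pools. The design asks what the loss of Cbx2, a chromobox subunit of Polycomb repressive complex 1 that reads a repressive histone mark, does to transcription in XX and XY gonads.

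Wnt4 is a secreted ligand that binds Frizzled receptors such as Fzd1. Signalling through the canonical branch stops the destruction complex, of which Axin2 is a scaffold, from removing beta-catenin, the product of Ctnnb1, which then acts with TCF and LEF factors in the nucleus. Znrf3 is a membrane ubiquitin ligase that clears Frizzled receptors, and R-spondins such as Rspo1 bind Lgr4 or Lgr5 together with Znrf3 and so keep the receptors at the surface. Axin2 is also a widely used target gene of the pathway. In mice the loss of Rspo1 or Wnt4 masculinises XX gonads in part, and beta-catenin stabilised in XY gonads disturbs testis formation.

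Xist and Eif2s3y matched the labelled sex on every array. Xist group means were 12.65 and 12.80 in XX but 6.03 and 5.95 in XY (log2, WT before KO), and Eif2s3y means were 3.30 and 3.62 in XX but 9.60 and 9.85 in XY. Cbx2 signal was higher on arrays labelled KO, with 9.34 ± 0.11 in KO XX against 8.60 ± 0.16 in WT XX and 9.45 ± 0.12 in KO XY against 8.92 ± 0.12 in WT XY (log2, SD, n = 3). The labels do not say which stretch of Cbx2 the allele removes, so this probe set checks nothing. Groups were taken from titles and genotype fields, although the source field of every WT sample reads as KO XX. KO and WT below mean arrays labelled so. Across genes, WT XX replicate 1 correlated less with the other WT XX arrays (mean r 0.988) than with the WT XY arrays (mean r 0.995). The Gapdh 3′ minus 5′ control difference, which grows as transcripts shorten, was 4.91 ± 0.12 in KO XY against 4.13 ± 0.38 in WT XY, and 4.05 ± 0.22 in KO XX against 4.30 ± 0.45 in WT XX (log2, SD, n = 3). An exact permutation test of the XY pair gave p = 0.1, the smallest that 3 against 3 arrays allow, and that of the XX pair gave p = 0.4.

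Of 5 gonadal somatic markers, 3 were lower in KO in both sexes. These were Nr5a1 (-2.35 in XY and -2.04 in XX), Gata4 (-1.49 and -1.41) and Lhx9 (-1.21 and -0.96), while Wt1 and Emx2 did not pass the test. The mean over these markers ran from 10.65 to 10.87 on WT XX arrays, from 10.82 to 10.86 on WT XY, from 9.59 to 10.04 on KO XX and from 9.67 to 9.85 on KO XY. The lowest group mean of the 5 was that of Gata4 in KO XX, at 7.497 against 8.91 in WT XX. Of 10 coelomic epithelium markers, 5 were higher and 1 lower in KO XY, and 6 higher and 1 lower in KO XX. Their mean ran from 7.78 to 7.92 in WT XX, from 7.96 to 8.07 in WT XY, from 8.53 to 8.78 in KO XX and from 8.52 to 8.59 in KO XY. Of 10 endothelial markers, 6 were lower in KO XY and 5 in KO XX, with none higher, and the mean ran from 7.39 to 7.66 on WT arrays and from 6.47 to 7.28 on KO arrays. Macrophage markers were higher for 2 of 8 in each sex, mesonephric markers lower for 1 of 8 in each sex, and germ cell markers higher for 3 of 10 in XX and for 0 of 10 in XY. Beside these counts, 5.58% of all genes were higher and 6% lower in KO XY, and 7.28% higher and 4.64% lower in KO XX. The part of these marker levels in the results below was not tested. In such tissue RNA, fewer cells of a type and less RNA per cell cannot be told apart.

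Wnt4 and Fzd1 were the genes of the 8 that passed the test in a knockout contrast and have an entry in the RefSeq promoter table (GRCm38.p6). Their 250 bases before the transcription start are shown because Polycomb complexes often occupy CpG-rich promoters; no binding was measured here. The sequences run 5′ to 3′ on the gene's strand, with each CG dinucleotide in capitals.
Wnt4 (chr4:137277385-137277634, plus strand): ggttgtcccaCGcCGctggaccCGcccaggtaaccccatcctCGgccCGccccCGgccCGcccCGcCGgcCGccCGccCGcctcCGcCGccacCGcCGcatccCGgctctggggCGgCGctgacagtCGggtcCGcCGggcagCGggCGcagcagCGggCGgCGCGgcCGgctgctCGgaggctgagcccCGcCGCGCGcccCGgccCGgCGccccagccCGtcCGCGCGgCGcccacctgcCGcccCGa
Fzd1 (chr5:4758217-4758466, minus strand): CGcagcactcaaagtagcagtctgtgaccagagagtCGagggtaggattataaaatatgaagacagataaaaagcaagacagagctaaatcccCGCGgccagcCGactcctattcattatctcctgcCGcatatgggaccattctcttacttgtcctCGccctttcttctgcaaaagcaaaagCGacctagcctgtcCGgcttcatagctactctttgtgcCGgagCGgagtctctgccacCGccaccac
The Wnt4 window held 44 CG dinucleotides at 85.2% G and C, and 0.539% of the 32841 promoters in the table held as many. The Fzd1 window held 12 at 51.2% G and C, a number reached by 33.5% of the promoters, whose medians were 6 CG dinucleotides and 52.4% G and C. For the other genes with an entry, the number was 22 for Rspo1, 10 for Lgr4, 24 for Axin2, and 35 and 43 for 2 starts of Ctnnb1. Lgr5 and Znrf3 have no entry. The TCF and LEF motif, searched as CTTTGAT or CTTTGAA on both strands, was in none of the 7 windows and in 7.48% of all promoters. The Nr5a1 motif AAGGTCA was likewise in none of them and in 4.08% of all promoters. The GATA motif AGATAA was found only in the Fzd1 window, where 2 matches started 186 and 134 bases before the transcription start, and it was in 9.99% of all promoters.

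**Figure D1:**
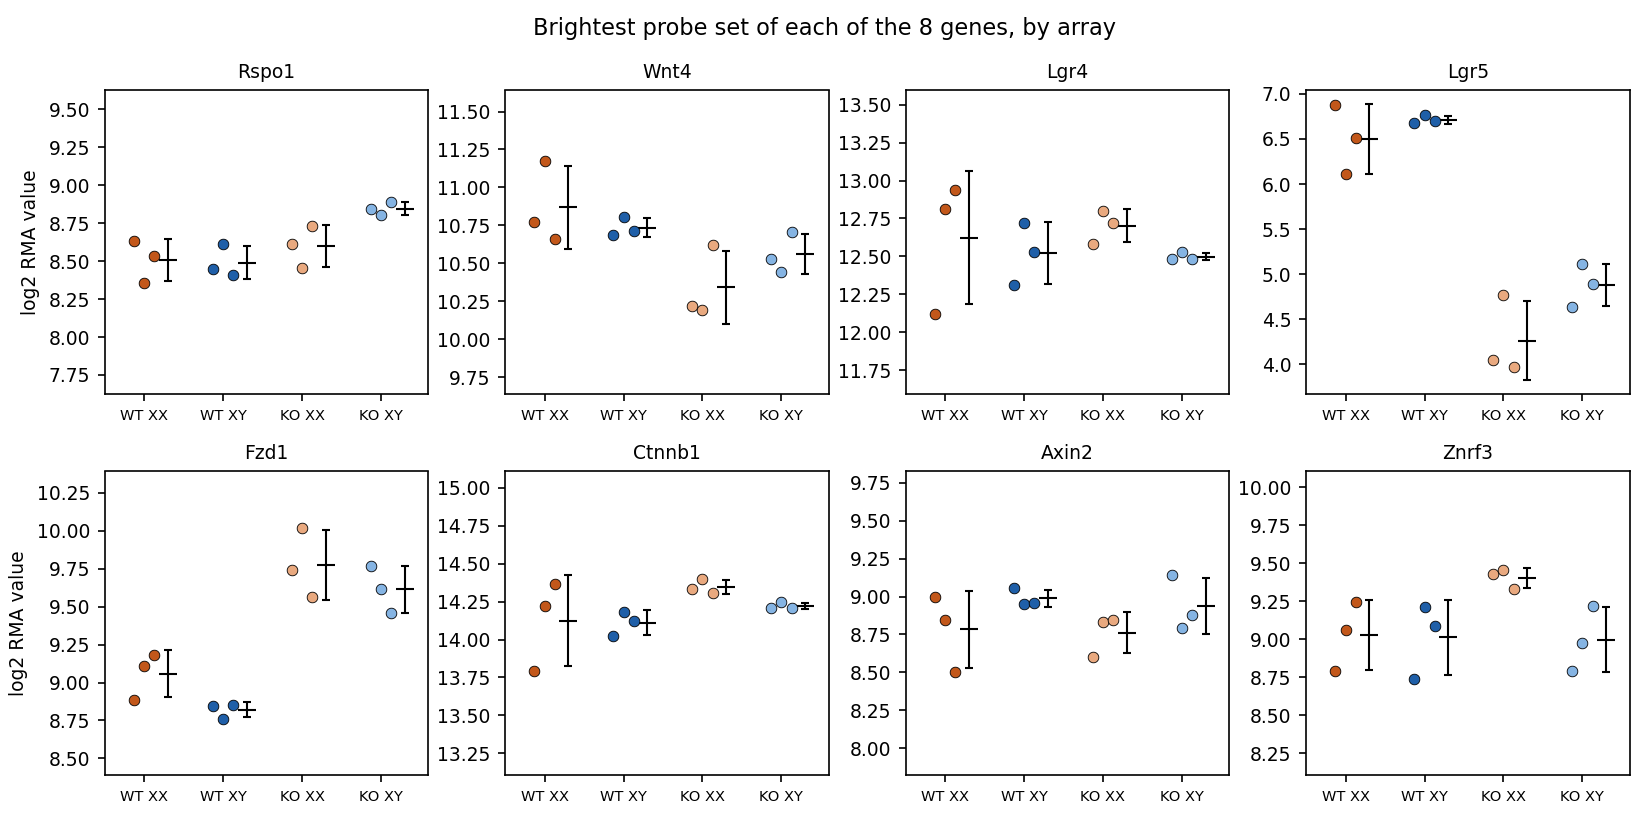
Log2 RMA value of the brightest probe set of each gene, with 1 point per array in the groups WT XX, WT XY, KO XX and KO XY, and the mean and SD (n = 3) beside them as bars. Lgr5 lies lower and Fzd1 higher on all 6 KO arrays than on all 6 WT arrays, and WT XX replicate 1, the first point of its group, is the lowest of the 12 arrays for Lgr4 and Ctnnb1.

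Knockout against wild type in XX gonads asks what the loss of Cbx2 changes where the ovary would form. Lgr5 and Wnt4 fell, Fzd1 rose, and Rspo1, Lgr4, Ctnnb1, Axin2 and Znrf3 did not pass the test. This made 3 of 8 genes and 4 of 16 probe sets, beside a background of 11.9% of all genes and 9.35% of all probe sets (limma, Benjamini-Hochberg adjusted p under 0.05). In XY gonads, where a testis would form, Lgr5 fell and Fzd1 rose. There 2 of 8 genes and 2 of 16 probe sets passed, beside 11.6% of all genes and 8.89% of all probe sets. The arrays of KO and WT did not overlap for 4 of 8 genes in XX (26.6% of all genes) and for 4 of 8 in XY (36.9%). The median log2 difference over the 8 genes was 0.08 in XX and -0.02 in XY, beside -0.02 and 0.01 over all genes. The XX and XY contrasts use different arrays but share the estimate of the spread. Since the 8 genes were chosen with earlier results of these data known, an excess over these shares is a description only.

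**Figure D2:**
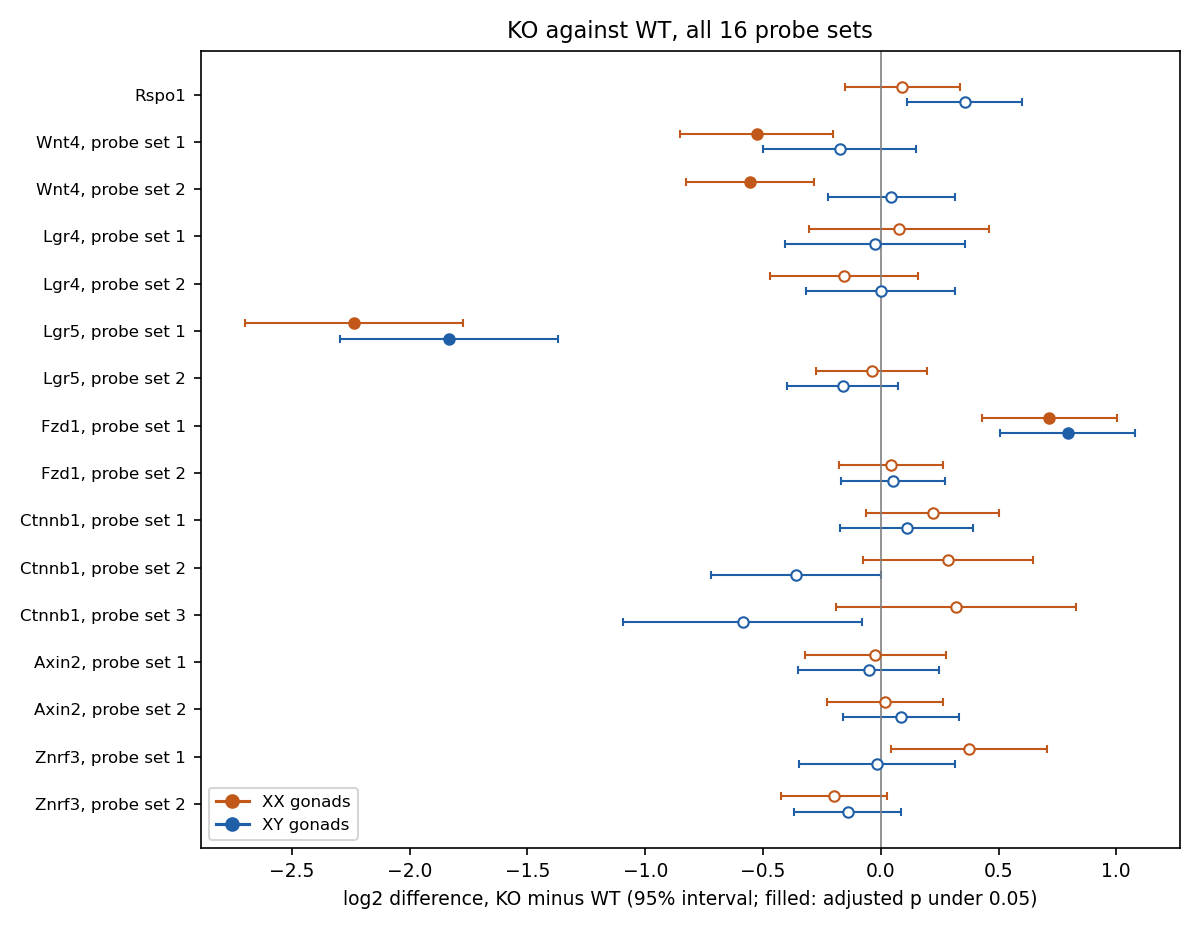
Log2 difference of KO minus WT for all 16 probe sets, in XX and XY gonads, with 95% intervals from the limma fit; filled points passed at an adjusted p under 0.05. Lgr5 probe set 1 lies at -2.24 and -1.83 and Fzd1 probe set 1 at 0.72 and 0.79, while both Wnt4 probe sets are filled in XX and neither in XY.

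Among the ligands, Wnt4 was lower in KO XX than in WT XX. Its brighter probe set read 10.77, 11.18 and 10.66 on the WT XX arrays and 10.22, 10.19 and 10.62 on the KO XX arrays. The groups did not overlap, but KO XX replicate 3 and WT XX replicate 3 lay close together. The difference was -0.53 ± 0.15 (log2, SE), or 1.44-fold lower, with a 95% interval from -0.85 to -0.20 and an adjusted p of 0.0417. The second probe set read 9.60, 9.67 and 9.54 in WT XX and 8.81, 9.15 and 9.19 in KO XX, again without overlap. There the difference was -0.56 ± 0.13, or 1.47-fold lower, with an interval from -0.83 to -0.29 and an adjusted p of 0.0123. Across the 12 arrays the 2 probe sets moved alike, with a Pearson r of 0.80, and of 0.59 after the group means were taken out. The call for the brighter probe set was near the threshold and was kept in 9 of 22 alternatives (adjusted p from 0.00786 to 0.148); without WT XX replicate 1 the difference was -0.57 at an adjusted p of 0.0536. It was kept when KO XX replicate 3, KO XY replicate 2 or WT XX replicate 3 was left out and lost when any other single array was. The second probe set kept its call in 18 of 20 alternatives (adjusted p from 0.00484 to 0.0524), and lost it without KO XX replicate 1 and in a fit of the XX groups alone.

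In XY gonads Wnt4 did not pass. The brighter probe set read 10.69, 10.81 and 10.71 in WT XY and 10.53, 10.45 and 10.71 in KO XY, so that the groups overlapped. Its difference was -0.17 ± 0.15 (interval -0.50 to 0.15, adjusted p = 0.589 by limma). The second read 9.29, 9.55 and 9.29 in WT XY and 9.47, 9.29 and 9.51 in KO XY, with a difference of 0.05 ± 0.13 (interval -0.23 to 0.32, adjusted p = 0.903 by limma). For both probe sets WT XX had the highest group mean and KO XX the lowest. The test of the difference between the sexes is given further below.

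Rspo1, the R-spondin of the fetal ovary, read 8.63, 8.36 and 8.53 in WT XX and 8.61, 8.45 and 8.73 in KO XX. The groups overlapped, with a difference of 0.09 ± 0.11 (interval -0.15 to 0.34, adjusted p = 0.684 by limma). The XY arrays read 8.45, 8.61 and 8.41 in WT and 8.84, 8.80 and 8.89 in KO, which made every KO XY array higher than every other array of the study. The XY difference was 0.36 ± 0.11, or 1.28-fold higher, with an interval from 0.11 to 0.60, and it missed the threshold at an adjusted p of 0.0716. It passed in 4 of 22 alternatives, with adjusted p-values over all of them from 0.0198 to 0.489, the highest with the Gapdh difference as a covariate.

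Among the receptors of R-spondins, Lgr5 fell in both sexes and had the largest difference of the 16 probe sets. It read 6.88, 6.11 and 6.51 in WT XX and 4.05, 4.77 and 3.97 in KO XX. The XY arrays read 6.68, 6.76 and 6.70 in WT and 4.64, 5.11 and 4.90 in KO. Every KO array was lower than every WT array. The difference was -2.24 ± 0.22 in XX, or 4.71-fold lower, with an interval from -2.70 to -1.77 and an adjusted p of 1.81e-05. For XY it was -1.83 ± 0.22, or 3.56-fold lower, with an interval from -2.30 to -1.37 and an adjusted p of 8.21e-05. Without WT XX replicate 1, the array with the highest Lgr5 value, the XX difference was -2.05 at an adjusted p of 5.86e-05. Lgr5 passed in all 22 alternatives in each sex, with differences from -2.49 to -1.14 in XX and from -1.95 to -0.998 in XY.

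The smallest Lgr5 differences came from averaging both of its probe sets. The second Lgr5 probe set lay between 4.33 and 4.67 on all 12 arrays, below each array's median of all probe sets, and its KO difference was -0.04 in XX (adjusted p = 0.875 by limma) and -0.16 in XY (adjusted p = 0.458 by limma). The first probe set was above the array median on the 6 WT arrays and below it on the 6 KO arrays. Differences of values near an array's background understate the fold, and the background was not analysed here. The dimmer probe sets of Lgr4, Fzd1, Axin2 and Znrf3 also lay below the array median on all 12 arrays, and none of them passed in any contrast.

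Lgr4, the other R-spondin receptor of the set, did not pass in either sex. It read 12.12, 12.81 and 12.94 in WT XX and 12.58, 12.80 and 12.72 in KO XX. On the XY arrays it read 12.31, 12.72 and 12.53 in WT and 12.48, 12.53 and 12.49 in KO. The difference was 0.08 ± 0.18 in XX (interval -0.30 to 0.46, adjusted p = 0.84 by limma) and -0.02 ± 0.18 in XY (interval -0.40 to 0.36, adjusted p = 0.968 by limma). WT XX replicate 1 was the lowest of the 12 arrays, and without it the XX value was -0.17 (adjusted p = 0.489).

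Fzd1, a Frizzled receptor, rose in both sexes. It read 8.88, 9.11 and 9.18 in WT XX and 9.74, 10.02 and 9.56 in KO XX. In XY it read 8.84, 8.76 and 8.85 in WT and 9.77, 9.62 and 9.46 in KO. All 6 KO arrays were higher than all 6 WT arrays. The rise was 0.72 ± 0.13 in XX, or 1.64-fold, with an interval from 0.429 to 1.003 and an adjusted p of 0.00353. In XY it was 0.79 ± 0.13, or 1.73-fold, with an interval from 0.51 to 1.08 and an adjusted p of 0.00157. The XX call held in all 22 alternatives, and without WT XX replicate 1 the value was 0.63 at an adjusted p of 0.0144. Averaging both Fzd1 probe sets gave 0.38 in XX (adjusted p = 0.00999) and 0.42 in XY (adjusted p = 0.00489). The XY call held in 21, and was lost with the Gapdh difference as a covariate (0.65, adjusted p = 0.133).

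Znrf3, the ubiquitin ligase that R-spondins hold back, read 8.79, 9.06 and 9.25 in WT XX and 9.43, 9.46 and 9.33 in KO XX. Every KO XX array was higher, but the difference of 0.37 ± 0.15 (interval 0.04 to 0.70) did not pass (adjusted p = 0.159 by limma). Without WT XX replicate 1 it was 0.25 (adjusted p = 0.387), and with the Gapdh covariate it passed at 0.49 (adjusted p = 0.0303). In XY it read 8.74, 9.21 and 9.08 in WT and 8.79, 8.98 and 9.22 in KO, with a difference of -0.02 ± 0.15 (interval -0.35 to 0.31, adjusted p = 0.974 by limma).

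The 3 probe sets of Ctnnb1 gave different pictures, and none passed in any contrast. The brightest read 13.79, 14.22 and 14.36 in WT XX against 14.33, 14.40 and 14.30 in KO XX. For the XY gonads it read 14.02, 14.18 and 14.13 in WT against 14.21, 14.24 and 14.21 in KO. Its KO difference was 0.22 ± 0.13 in XX (interval -0.06 to 0.50) and 0.11 ± 0.13 in XY (interval -0.17 to 0.39). Without WT XX replicate 1, again the lowest of the 12 arrays, the XX value was 0.05.

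Ctnnb1 probe sets 2 and 3 moved together across the arrays (Pearson r 0.90) but not with the brightest (r of -0.09 and -0.27). Probe set 3 read 7.14, 6.26 and 6.50 in WT XX against 6.57, 6.94 and 7.34 in KO XX. For the XY gonads it read 6.68, 7.07 and 7.12 in WT against 6.54, 6.04 and 6.54 in KO. In XY every KO array was lower, with a difference of -0.59 ± 0.24 (adjusted p = 0.16 by limma). That value became -0.26 (adjusted p = 0.91) with the Gapdh covariate, and it passed with array weights (adjusted p = 0.0457) and in a fit of the XY groups alone (adjusted p = 0.0433). Probe set 2 had a difference of -0.36 ± 0.17 in XY (adjusted p = 0.234 by limma) and of 0.28 ± 0.17 in XX (adjusted p = 0.345 by limma). Which Ctnnb1 transcripts each probe set reads was not analysed here.

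**Figure D3:**
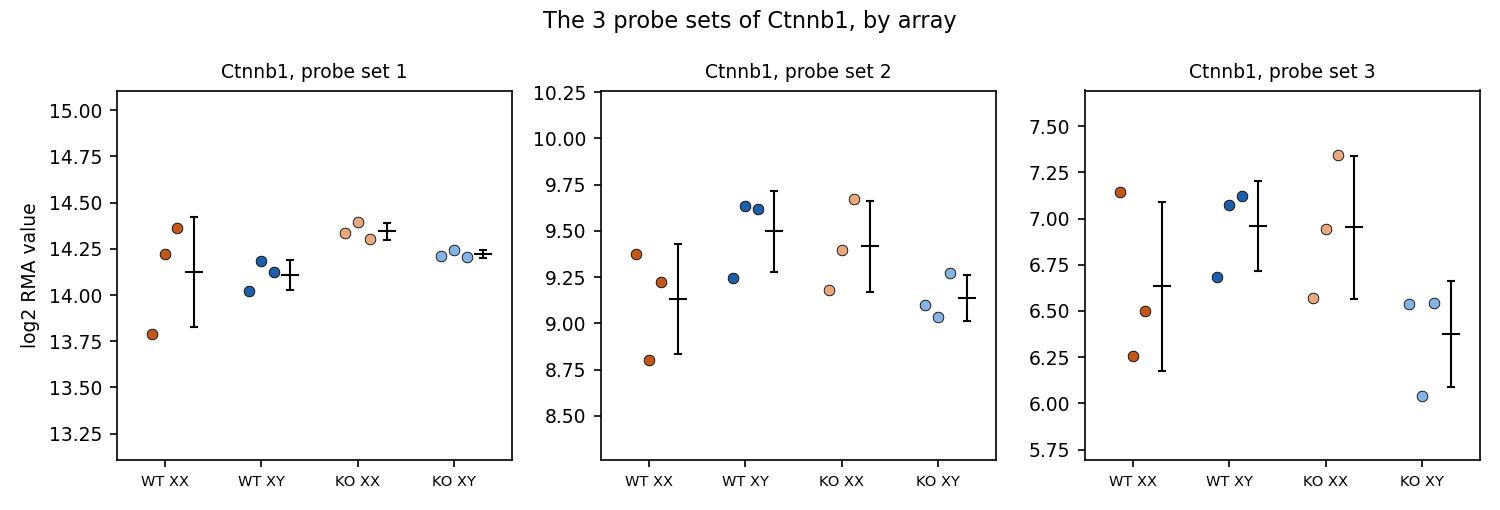
Log2 RMA values of the 3 Ctnnb1 probe sets, with 1 point per array in 4 groups and the mean and SD (n = 3) beside them as bars. WT XX replicate 1, the first point of its group, is the lowest of its group in probe set 1 and the highest in probe sets 2 and 3.

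Axin2, a target gene and a brake of the pathway, did not pass in either sex. It read 8.997, 8.848 and 8.504 in WT XX and 8.60, 8.83 and 8.85 in KO XX. In XY it read 9.05, 8.95 and 8.96 in WT and 9.14, 8.79 and 8.88 in KO. The groups overlapped in both sexes. The differences were -0.02 ± 0.14 in XX (interval -0.32 to 0.28) and -0.05 ± 0.14 in XY (interval -0.35 to 0.25), with adjusted p-values of 0.946 and 0.898 by limma.

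XY against XX within each genotype asks whether these genes already differ between the sexes. None of the 16 probe sets passed in WT, beside a background of 0.0555% of all probe sets, or in KO, beside 0.0377%. At an unadjusted p under 0.05 there were 1 in WT and 5 in KO. Those counts cannot be set beside these shares, since all probe sets were not counted at that threshold. In WT, Rspo1 differed by -0.02 ± 0.11 (XY minus XX, interval -0.26 to 0.23), the 2 Wnt4 probe sets by -0.13 ± 0.15 and -0.22 ± 0.13, and Lgr5 by 0.22 ± 0.22. Of the 8 genes only Fzd1 had WT groups that did not overlap, which is near the share of 13.2% of all genes. Every WT XY array was lower for Fzd1, with a difference of -0.24 ± 0.13 (adjusted p = 0.624 by limma). In KO, Lgr5 was higher in XY by 0.62 ± 0.22 (interval 0.16 to 1.08, adjusted p = 0.378 by limma) and Znrf3 lower, at -0.41 ± 0.15 (adjusted p = 0.40 by limma). The second Wnt4 probe set was higher in KO XY than in KO XX by 0.38 ± 0.13 (adjusted p = 0.364 by limma).

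The WT sex comparison rested heavily on 1 array. Without WT XX replicate 1, 2449 of the 45037 probe sets passed, against 25 with it, and still none of the 16. The nearest were Ctnnb1 probe set 2 at 0.49 (adjusted p = 0.134), Ctnnb1 probe set 3 at 0.58 and Lgr4 at -0.35 (adjusted p = 0.149 for both). Of the 88 other pathway genes listed below, 7 passed without that array, and none with it. In WT XY they were lower for Tcf7l2 (-1.34, adjusted p = 0.000191), Axin1 (-1.06, adjusted p = 0.005), Fzd5 (-0.95, adjusted p = 0.015), Foxl2 (-0.76, adjusted p = 0.0183), Gsk3a (-0.54, adjusted p = 0.019) and Fzd2 (-0.52, adjusted p = 0.0223), and higher for Apc (0.68, adjusted p = 0.0143; limma throughout). These 7 were singled out after their values were seen. The share of all genes passing without that array was not counted, so 7 of 88 cannot be set beside it.

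**Figure D4:**
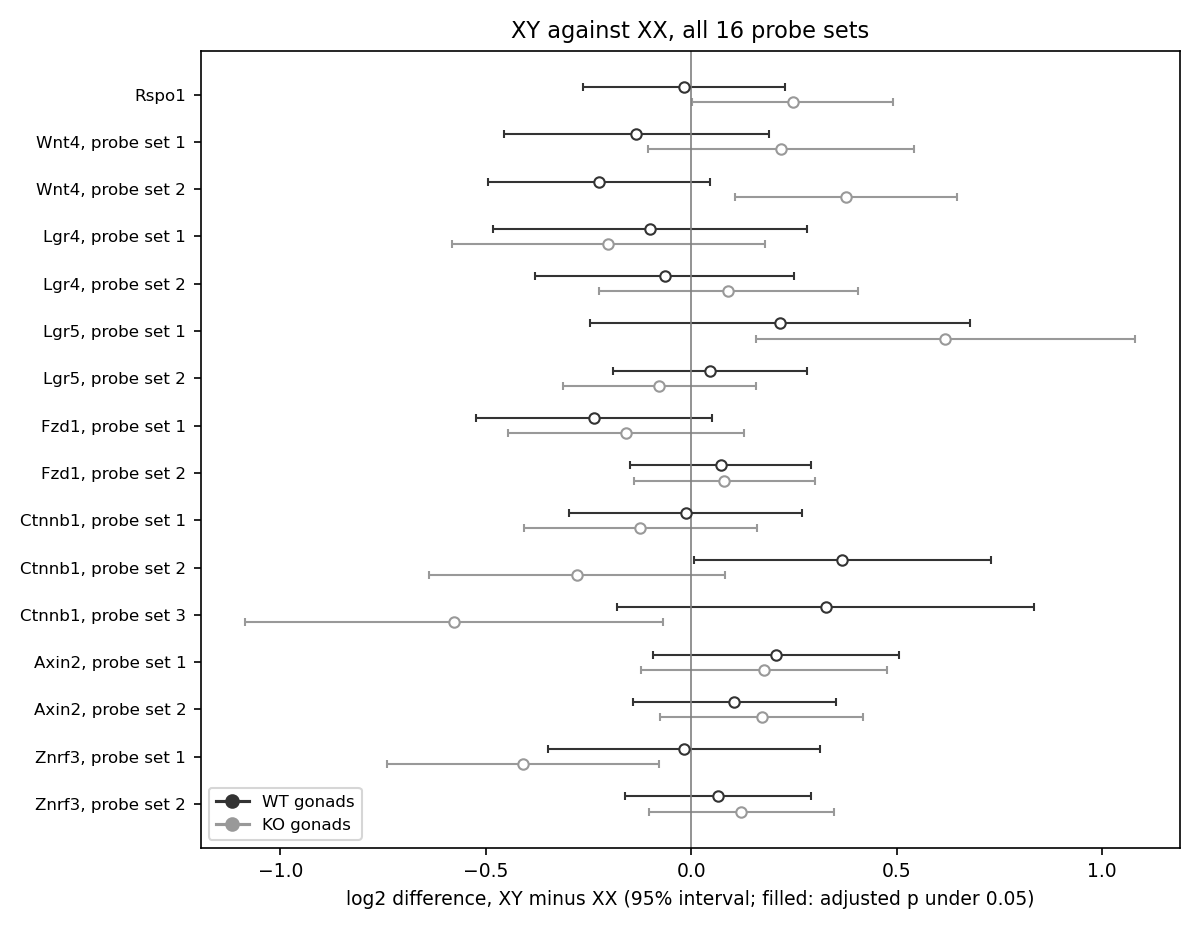
Log2 difference of XY minus XX for all 16 probe sets, in WT and KO gonads, with 95% intervals from the limma fit. No point is filled, since none passed at an adjusted p under 0.05; the widest departures are Lgr5 probe set 1 at 0.62 and Ctnnb1 probe set 3 at -0.58, both in KO.

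Whether the knockout acts differently in the sexes was tested as an interaction, the KO effect in XY minus that in XX. None of the 16 probe sets passed, beside a background of 0.00666% of all probe sets. At an unadjusted p under 0.05 there were 3 of the 16, again without a count over all probe sets. The second Wnt4 probe set had a value of 0.60 ± 0.18 (interval 0.22 to 0.98) and the brighter one of 0.35 ± 0.21 (interval -0.10 to 0.81), with adjusted p-values of 0.771 and 0.78 by limma. So the Wnt4 fall in XX is not shown to differ from its value in XY. For Lgr5 the interaction was 0.40 ± 0.30 (interval -0.25 to 1.06) and for Fzd1 0.08 ± 0.19 (interval -0.33 to 0.48). Averaged over both sexes, 3 of 8 genes passed, beside 21.9% of all genes. They were Lgr5 (-2.04 ± 0.15, adjusted p = 5.14e-07), Fzd1 (0.75 ± 0.09, adjusted p = 6.27e-05) and Wnt4 (-0.35 ± 0.11, adjusted p = 0.0348, lost without 8 of the 12 arrays in turn with adjusted p up to 0.0809). The second Wnt4 probe set did not pass at -0.26 ± 0.09 (adjusted p = 0.0645), and neither did Rspo1 at 0.22 ± 0.08 (adjusted p = 0.0737).

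The other genes of the pathway were followed as 9 lists, with 88 of 90 genes measured. The lists too were chosen with earlier results of these data known, so their counts describe and do not test. In KO XX 21 were higher and 9 lower, and in KO XY 13 were higher and 8 lower, with a median of 0.05 and 0.04 against -0.02 and 0.01 over all genes. Of all genes, 7.28% were higher and 4.64% lower in XX, and 5.58% higher and 6% lower in XY. Lef1, Sp5, Dkk1 and some others stand in 2 lists.

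**Figure D5:**
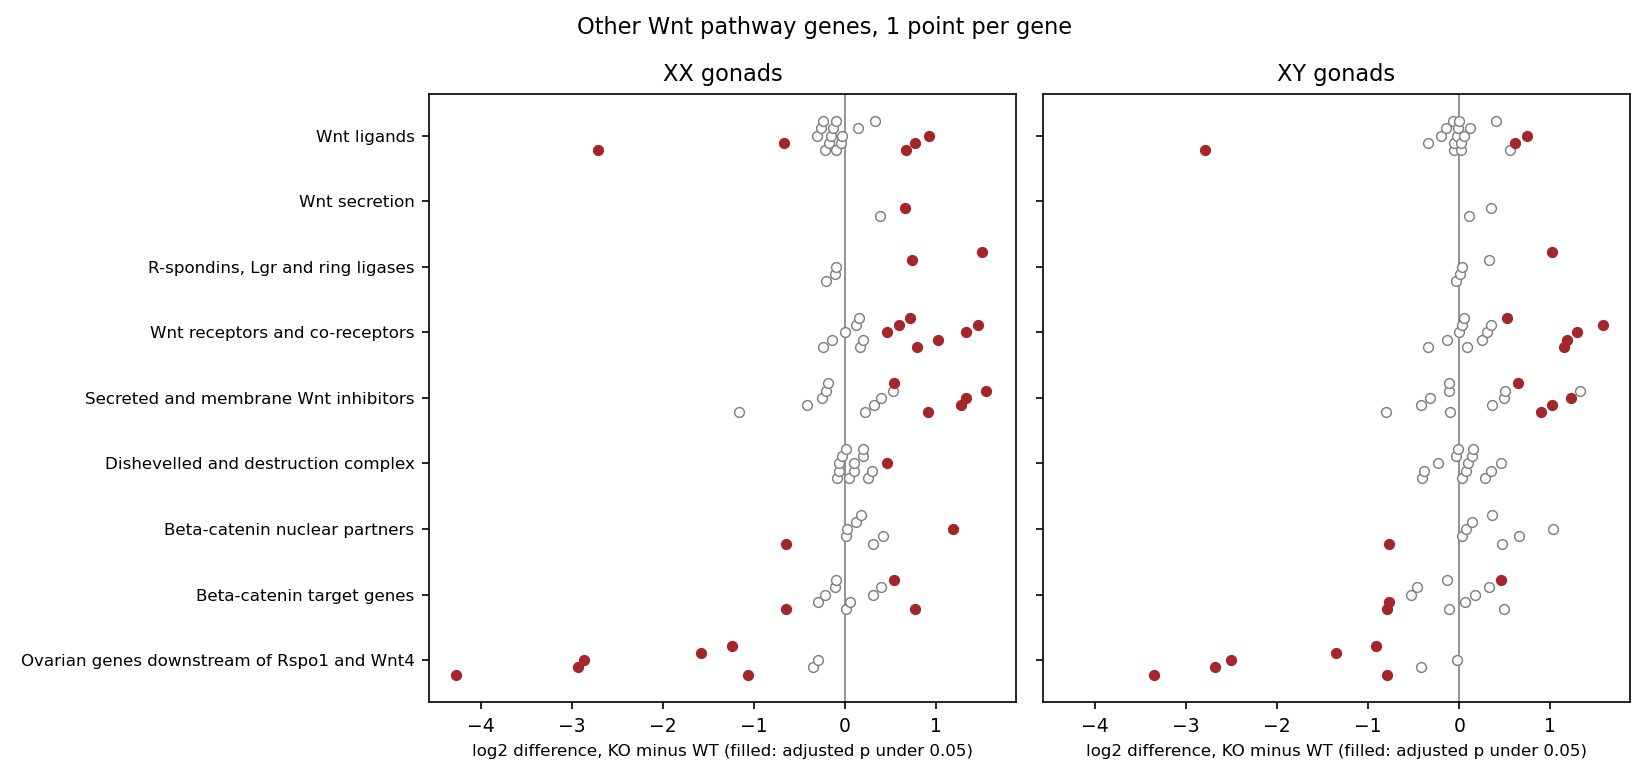
Log2 difference of KO minus WT for the 88 other pathway genes by list, in XX and XY gonads, with 1 point per gene and filled points for an adjusted p under 0.05. Receptors and inhibitors have filled points only to the right of 0, and ovarian downstream genes only to the left.

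Among 18 other Wnt ligands, 3 rose and 2 fell in XX, and 2 rose and 1 fell in XY. Wnt6, a ligand found in many epithelia, had the largest change of the ligands. It read 9.66, 9.52 and 9.36 in WT XX against 6.77, 6.91 and 6.69 in KO XX, and 9.69, 9.60 and 9.78 in WT XY against 6.79, 6.97 and 6.94 in KO XY. The groups lay far apart, with differences of -2.72 ± 0.11 in XX (adjusted p = 1.67e-08) and -2.79 ± 0.11 in XY (adjusted p = 8.59e-09). Wnt5a, best known for signalling without beta-catenin, rose by 0.92 in XX (adjusted p = 0.000235) and 0.61 in XY (adjusted p = 0.00474). Wnt11, of the same kind, rose by 0.77 and 0.74 (adjusted p = 0.00214 and 0.00285). Wnt5b, named after its value was seen, passed in XX at 0.66 (adjusted p = 0.0503 with only the groups compared) and Wnt10a at -0.68. The XY difference of Wnt5b was 0.41, which did not pass but did in 4 of 22 alternatives. Wls, which carries Wnt proteins to the surface, passed in XX at 0.65 (adjusted p = 0.00175; 0.43 with probe sets averaged) and had 0.35 in XY (adjusted p = 0.0655).

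Of 5 further R-spondin, Lgr and ring ligase genes, 2 rose in XX and 1 in XY. Rspo3, another R-spondin, read 6.70, 7.51 and 7.12 in WT XX against 8.79, 8.86 and 8.18 in KO XX. On the XY arrays it read 7.62, 7.58 and 7.57 in WT against 8.51, 8.85 and 8.47 in KO. Its KO arrays were higher in both sexes, by 1.502 ± 0.203 in XX (adjusted p = 0.000305) and 1.02 ± 0.20 in XY (adjusted p = 0.00534). With its probe sets averaged the values were 0.60 in XX (adjusted p = 0.0152) and 0.44 in XY, where the call was lost (adjusted p = 0.0722). Lgr6, the third R-spondin receptor of this family, rose in XX by 0.74 ± 0.11 (adjusted p = 0.000628) from a low level and had 0.02 in XY (adjusted p = 0.942).

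Within each sex, receptors and the secreted and membrane inhibitors were higher in KO or did not pass, with none lower. Averaged over the sexes, where 21.9% of all genes passed in either direction, 8 of 14 receptors were higher and none lower. Of 14 inhibitors, 6 were higher and 2 lower. The lower ones, named after their values were seen, were Wif1 (-0.99 ± 0.28, adjusted p = 0.0257) and Kremen1 (-0.26 ± 0.08, adjusted p = 0.0445). Wif1 lay below the array median on all 12 arrays, and its KO arrays were widely scattered. It ran from 2.77 to 4.32 in KO XX against 4.46 to 4.66 in WT XX. In KO XY it ran from 3.33 to 5.02 against 4.71 to 4.82 in WT XY, so that the XY groups overlapped. No alternatives are given for these 2 averaged values. Of 14 receptors and co-receptors, 7 rose in XX and 5 in XY, with medians of 0.33 and 0.28; without WT XX replicate 1 the counts were 6 and 6. Ror1, a receptor for Wnt5a, rose by 1.46 in XX (adjusted p = 2.13e-06) and 1.29 in XY (adjusted p = 4.48e-06). The Frizzled receptors Fzd7 (1.33 and 1.15), Fzd4 (1.02 and 1.58) and Fzd2 (0.72 and 1.18) rose in both sexes too. With probe sets averaged per gene these 4 still passed in both, at lower values for Ror1 (0.61 and 0.41), for Fzd7 (0.63 and 0.65), and in XY for Fzd4 (0.94) and Fzd2 (0.60). Without WT XX replicate 1, Fzd2 in XX was 0.46 (adjusted p = 0.0283). Of 14 measured inhibitors, 5 rose in XX and 4 in XY, and 4 and 5 without WT XX replicate 1. The Frizzled-like decoys Sfrp1 (1.32 and 1.23) and Sfrp2 (1.27 and 1.02) and the Dickkopf family gene Dkk3 (0.91 and 0.65) rose in both. Dkk2 (1.54) and Dkk1 (0.53) passed in XX, and Draxin (0.90, or 0.40 with probe sets averaged) in XY. Dkk1 ran from 5.07 to 5.75 on the XX arrays, below each array's median. Draxin ran from 4.74 to 5.30 in WT XY, also below it, and from 5.61 to 6.22 in KO XY. The XY difference of Dkk2 was 1.33, which did not pass but did in 9 of 22 alternatives. Dkk2 was named after its value was seen. It read 4.14, 5.07 and 5.59 in WT XX against 6.81, 6.93 and 5.69 in KO XX. Its call was lost without WT XX replicate 1 (1.15, adjusted p = 0.0924), without KO XX replicate 1 (adjusted p = 0.0924) or 2 (adjusted p = 0.0996), with array weights (adjusted p = 0.088) and with only the groups compared (adjusted p = 0.0556). The Dkk1 call was lost without 7 of the 12 arrays in turn (adjusted p up to 0.123), and that of Fzd2 in XX without KO XX replicate 1 (adjusted p = 0.0679). With the Gapdh covariate the XY calls over all probe sets went from 4003 to 1040. In that fit the rises in XY numbered 3 of 14 receptors and 2 of 14 inhibitors. Fzd2, Dkk3, Draxin, Wnt5a, Wnt11 and Rspo3 no longer passed there, nor did Nkd1, Sp5, Gng13 and Irx3, described next. The values did not shrink for Wnt11 (0.77) and Nkd1 (0.57), but did for the others named, such as Fzd2 (0.76) and Draxin (0.43). Since that covariate runs with genotype in XY, a call lost there does not tell transcript length from genotype.

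Of 13 Dishevelled and destruction complex genes, none passed in XY and 1 in XX. This was Btrc, part of the ligase that marks beta-catenin for removal, at 0.46 (adjusted p = 0.0391). Its probe sets averaged gave -0.13 (adjusted p = 0.361), and the call was lost without 7 of the 12 arrays in turn (adjusted p up to 0.129). Of 8 measured nuclear partners of beta-catenin, Lef1 fell in both sexes. It read 9.62, 9.53 and 9.48 in WT XX against 8.78, 8.83 and 9.07 in KO XX, and 9.48, 9.74 and 9.57 in WT XY against 8.86, 8.75 and 8.87 in KO XY. The groups did not overlap, with differences of -0.65 ± 0.11 in XX (adjusted p = 0.00208) and -0.77 ± 0.11 in XY (adjusted p = 0.000512). Tcf7l1, a TCF factor that mostly represses, passed in XX at 1.18 (adjusted p = 0.0455), a call lost without 10 of the 12 arrays in turn (adjusted p up to 0.146; 0.73 without WT XX replicate 1 and 0.78 with probe sets averaged). The XY difference of Tcf7l1 was 1.03, which did not pass but did in 5 of 22 alternatives. Of 11 measured target genes, 2 rose and 1 fell in XX, and 1 rose and 2 fell in XY. Nkd1, a feedback inhibitor, rose by 0.77 in XX (0.36 with probe sets averaged) and 0.46 in XY (adjusted p = 0.0021 and 0.0493), and its XY call was lost without 9 of the 12 arrays in turn (adjusted p up to 0.178). Sp5 passed in XY at -0.80 (adjusted p = 0.00872), and Dkk1 and Lef1 are given above. The target genes thus passed in both directions.

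Genes known to depend on Rspo1 and Wnt4 in the fetal ovary, or to mark it, were mostly lower in KO of both sexes. Of 8, 6 fell in each sex and none rose, with a median of -1.41 in XX and -1.14 in XY. The counts were the same without WT XX replicate 1. This list was chosen with earlier results of these data known. Sp5, given above among the target genes, is counted here too as a gene that fell in XY. Fst, which encodes follistatin, read 9.50, 10.89 and 9.67 in WT XX against 5.60, 5.71 and 5.90 in KO XX, and 9.14, 9.55 and 9.28 in WT XY against 5.58, 5.90 and 6.44 in KO XY. It was lower on every KO array, with differences of -4.28 ± 0.30 in XX (adjusted p = 1.1e-06) and -3.35 ± 0.30 in XY (adjusted p = 6.85e-06). Bmp2, an ovarian signal downstream of Wnt4, read 9.50, 9.59 and 8.98 in WT XX against 6.87, 6.19 and 6.38 in KO XX. Its differences were -2.87 ± 0.18 in XX (adjusted p = 5.42e-07) and -2.51 ± 0.18 in XY (adjusted p = 1.42e-06). Runx1, a factor of the supporting cells, fell as well (-2.94 and -2.68), as did Gng13 (-1.58 and -1.36). With probe sets averaged both passed at -1.39 and -1.26 for Runx1 and -0.86 and -0.72 for Gng13. On the KO arrays Runx1 ran from 4.55 to 5.67 and Gng13 from 4.76 to 5.40, below each array's median.

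Irx3 fell too (-1.24 in XX and -0.92 in XY, adjusted p = 0.00649 and 0.0362; the XY call was lost without 5 of the 12 arrays in turn, with adjusted p up to 0.167, and with the replicate block, at 0.0549), while Irx5 did not pass at -0.35 and -0.03. Foxl2, a factor that maintains the ovarian fate, fell by 1.06 ± 0.18 in XX (adjusted p = 0.00207; -0.68 with probe sets averaged) and had -0.42 ± 0.18 in XY (adjusted p = 0.198). Irx3, Irx5 and Foxl2 were named after their values were seen. The gonadal somatic markers Nr5a1, Gata4 and Lhx9 fell beside them, as given above, and the part of that fall in these values was not tested. With the Gapdh covariate 3 of the 8 fell in XY, namely Fst, Bmp2 and Runx1, and 6 of 8 in XX. Over all probe sets that covariate took the XY calls from 4003 to 1040, as given above.

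The genes most like each of the 8 were found by Pearson r over the 12 arrays among genes with a mean of at least 6 (11113, or 11114 for Lgr5), and are given as a description. Lgr5 was most like Zfp703 (r 0.984), Prrt4 (0.978) and Bmp7 (0.976), but its arrays form a KO and a WT cluster, which raises any such r. After the group means were taken out, those values were 0.71, 0.65 and 0.72. Fzd1 was most like Tbx18 (0.968), Rnf180 (0.961) and Unc5c (0.960), which became 0.80, 0.69 and 0.73. Wnt4 was most like Sbsn (0.924), Mien1 (0.878) and Prkar1b (0.870), which became 0.90, 0.81 and 0.75. Rspo1 was most like Timm44 (0.896), Zfyve21 (0.887) and Vps37d (0.877), which became 0.83, 0.88 and 0.59.

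For the remaining genes the r of each gene named here was 0.838 or more after the group means were taken out. Ctnnb1 was most like Nae1 (0.983), Rtn4 (0.971) and Fat1 (0.964), with 0.98, 0.98 and 0.96 after the group means were taken out. Lgr4 was most like Ndfip1 (0.956), Afmid (0.944) and Morf4l2 (0.942), with 0.96, 0.95 and 0.94. Axin2 was most like Trabd (0.924), Bri3 (0.903) and Tusc1 (0.900), and Znrf3 most like Epn2 (0.918), Nck1 (0.896) and Wbp1l (0.888). WT XX replicate 1, the lowest array for Lgr4 and Ctnnb1, is among the points of each of these values.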

How the data were processed

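Affymetrix arrays measured 12 RNA pools (15 ng, 2 rounds of amplification, per the labels' protocols). The deposited values are log2 values; RMA, Affymetrix Expression Console and affy are named per the submitters' processing notes, with versions and settings not given in the sources used here. RMA summarises probes after quantile normalization, which can hide a shift common to all genes. Values ran from 2.37 to 15.01 and were used unchanged. Of 45101 probe sets, 64 controls were left out, and 34945 had a single gene, 932 several and 9160 none; 34741 of the former matched RefSeq identifiers. The 4 group means were fitted with limma 3.58.1 in R 4.3.3 to all 12 arrays (8 residual degrees of freedom), two-sided, with Benjamini-Hochberg adjustment over all probe sets within each contrast. The steps were tested on simulated data. The genes and lists were chosen with earlier results of these data known. Beyond the 8 genes, up to 4 passing genes with the smallest p were named per list; others are marked as named after their values were seen. Alternatives covered normalization, filters, probe sets, variance prior, weights, a replicate block, a Gapdh covariate, the groups fitted and each array left out. The number of arrays limits the precision.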

Additional observations from a re-analysis of the deposited data

How the results depend on the processing

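Over 198 results and 4140 recomputed values, 3939 kept their side of the threshold or, for counts, stayed within 1.5 times. Direction was compared only where a value passed. Of the rest, 96 lost a call, 35 gained one, 69 counts moved and 1 reversed. The cause of these changes was not tested, except that fits of 2 groups use fewer samples. A change of sign where neither value passed was not counted as reversed. The reversed value was Btrc in XX, which gave -0.13 when its probe sets were averaged. Of the 8 genes, those rising in KO XY went from 1 to 2 with probe sets averaged per gene, with quantile normalization repeated, with array weights and with only the groups compared, and to 0 with the Gapdh covariate. Those falling in KO XX went from 2 to 1 with array medians centred, with array weights, with the replicate block and with only the groups compared (probe sets from 3 to 1 in the last). Those rising in KO XX went from 1 to 2 with the Gapdh covariate. Averaged over the sexes, those rising went from 1 to 2 with probe sets averaged per gene and with array weights, and those falling from 2 to 1 with the Gapdh covariate. Falling probe sets in KO XY went from 1 to 2 with array weights and with only the groups compared. Over all probe sets, KO against WT in XY went from 4003 to 6937 with array weights, 1040 with the Gapdh covariate and 6139 with only the groups compared, and in XX from 4213 to 2514 with only the groups compared. The WT sex comparison went from 25 to 60 with array weights, and the interaction from 3 to 0 with the Gapdh covariate. Other pathway genes rising in KO XY went from 13 to 22 with array weights, 5 with the Gapdh covariate and 20 with only the groups compared, and those falling from 8 to 5 with the Gapdh covariate. Pathway genes lower in XY went from 0 to 1 in WT with array weights and in KO with the Gapdh covariate.

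Leaving out 1 array at a time gave 2541 to 5637 probe sets for KO against WT in XY, 3032 to 4129 in XX, 6158 to 7933 averaged, 18 to 2449 for sex in WT, 13 to 30 for sex in KO and 3 to 10 for the interaction. The lowest XY counts were 2541 without WT XY replicate 1 and 2645 without WT XY replicate 3, and the highest of the last 3 ranges came without WT XX replicate 1. The genes of the 8 falling in XX, and falling or rising on average over the sexes, numbered 1 to 2 (probe sets 1 to 3 in XX and 1 to 2 on average). Other pathway genes with a sex difference in WT numbered 0 to 1 higher and 0 to 6 lower in XY. The 18 pairs of same-numbered arrays had correlations of their deviations from the group means from -0.21 to 0.28 (median 0.03, 6 over 0.1), so the replicate numbers are not taken to pair arrays. With the replicate block Wnt4 probe set 1 in XX missed the threshold (adjusted p = 0.0561). The averaged and interaction contrasts use all groups and have no fit of only the groups compared, and settings with 1 value per gene give no counts of probe sets.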
